A study of Mus musculus with 15 samples.

Results

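Levels of mmu-miR-150-5p, mmu-miR-150-3p, mmu-miR-181a-5p and mmu-miR-181b-5p, mature microRNAs studied mainly in lymphocytes, were followed in small RNA libraries of mouse Kupffer cells, which are macrophages resident in the liver. They were chosen by name, not by a threshold on their values, and are 4 of the 248 mature miRNAs listed in the deposited tables. The libraries came from C57BL/6J mice (wt) and from ob/ob mice, which carry a loss of functional leptin and become obese. There were 4 wt and 3 ob/ob libraries at 9 weeks of age, and 4 wt and 4 ob/ob libraries at 14 weeks. No other allele or agent is given for any group, and the ob/ob mutation is present in all cells of the animal, not only in the macrophages. Values are RPM, reads per 1000000 reads.

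MiRNAs are short RNAs that lower the output of messenger RNAs whose sequence pairs with the seed, the stretch near the 5′ end of the miRNA. One hairpin precursor gives a 5p and a 3p arm, of which 1 is usually kept and the other degraded. MiR-150-5p is known as an abundant miRNA of mature B and T cells and as a regulator of the transcription factor Myb. MiR-181a-5p is known for its role in T cell development, where it tunes the response of the T cell receptor, and miR-181b-5p is made from the same transcripts. The miR-181 family is also expressed in myeloid, endothelial and other cells, so its reads do not mark lymphocytes alone.

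RefSeq mature sequences (build GRCm38.p6) matched 3 of the 4 members, miR-150-3p, miR-181a-5p and miR-181b-5p. They are shown with the other miR-181 5p arms because the results compare members that share a seed. Capitals mark the seed, bases 2 to 8 from the 5′ end.
miR-150-3p: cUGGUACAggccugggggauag
miR-181a-5p: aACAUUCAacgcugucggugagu
miR-181b-5p: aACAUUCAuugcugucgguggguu
miR-181c-5p: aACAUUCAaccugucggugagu
miR-181d-5p: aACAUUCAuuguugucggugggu
The seed ACAUUCA occurs in 4 of 1679 mouse mature miRNAs of the reference, the miR-181 5p arms above, and all 4 are listed in the tables. The seed UGGUACA of miR-150-3p occurs in no other. Positions are counted from 1 at the 5′ end. From miR-181a-5p to miR-181b-5p the substitutions are A9U, C10U and A21G, and miR-181b-5p is longer, 24 against 23 bases. From miR-181b-5p to miR-181d-5p the substitution is C12U.

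MiR-150-3p lies at chr7:45121798-45121819 on the plus strand, in the miRNA gene Mir150. MiR-181a-5p is encoded at chr1:137966468-137966490 in Mir181a-1 and at chr2:38852741-38852763 in Mir181a-2, both on the plus strand. MiR-181b-5p lies downstream of each, at chr1:137966650-137966673 in Mir181b-1 and at chr2:38853845-38853868 in Mir181b-2. The 181a and 181b hairpins are 97 bases apart on chromosome 1 and 1019 bases apart on chromosome 2. In GENCODE vM21 the chromosome 1 pair lies within Gm4258, a processed transcript, and Mir181b-1 lies in an exon of the lincRNA A430106G13Rik. The chromosome 2 pair lies within the protein-coding gene Nr6a1, on the strand opposite to it and outside its exons. The precursors of miR-181a-5p are given with both arms in capitals, because the 5p arm is the same in both and only the 3p arm tells the loci apart.
Mir181a-1: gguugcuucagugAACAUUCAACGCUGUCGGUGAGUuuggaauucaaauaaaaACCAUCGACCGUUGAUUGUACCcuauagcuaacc
Mir181a-2: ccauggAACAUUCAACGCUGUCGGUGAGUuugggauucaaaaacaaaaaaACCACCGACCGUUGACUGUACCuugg
The values of miR-181a-5p and miR-181b-5p therefore pool reads of 2 loci each, in shares that the mature reads cannot give. MiR-181a-1-3p, the arm of the chromosome 1 precursor, was listed at 0.0711 to 0.388 RPM (1 to 22 reads per library). How reads that fit more than 1 miRNA were assigned is not stated in the sources used.

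The implied depth was 13.4 to 22.8 M (M, 1000000 reads) in wt and 25.9 to 33.9 M in ob/ob at 9 weeks, and 9.08 to 39.0 M and 44.1 to 98.1 M at 14 weeks, so ob/ob libraries were the deeper at both ages. The listed miRNAs summed to 297668 to 358621 RPM in wt and 230785 to 250422 in ob/ob at 9 weeks, without overlap. At 14 weeks they summed to 272978 to 333502 RPM in ob/ob and to 317539 to 353829 in wt, apart from wt replicate 1 with 147387. Every comparison below was therefore also made after each library was rescaled by its median ratio to the others. The pan-leukocyte miR-142a-5p was at 1756 to 4320 RPM in the 15 libraries. MiR-511-3p, which is hosted by the macrophage gene Mrc1, was at 53.6 to 183 RPM. The endothelial miR-126a-5p reached 10086 to 59409 RPM, above both. These are bulk samples, in which fewer cells of a type and less RNA per cell cannot be told apart.

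The most abundant member was mmu-miR-181a-5p, at 4702 to 7954 RPM over all libraries and at rank 10 of 248 by mean. It was followed by mmu-miR-150-5p at 95.8 to 304 RPM (rank 49) and by mmu-miR-181b-5p at 72.5 to 151 RPM (rank 62). Last came mmu-miR-150-3p, at 0 to 0.501 RPM (rank 212). The ranges of miR-150-5p and miR-181b-5p overlapped. Those of the other neighbours in this order did not. Over the 15 libraries miR-150-5p varied 3.17-fold from lowest to highest, miR-181b-5p 2.08-fold and miR-181a-5p 1.69-fold. RPM of different miRNAs are shares of reads, not molar amounts.

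**Figure D1:**
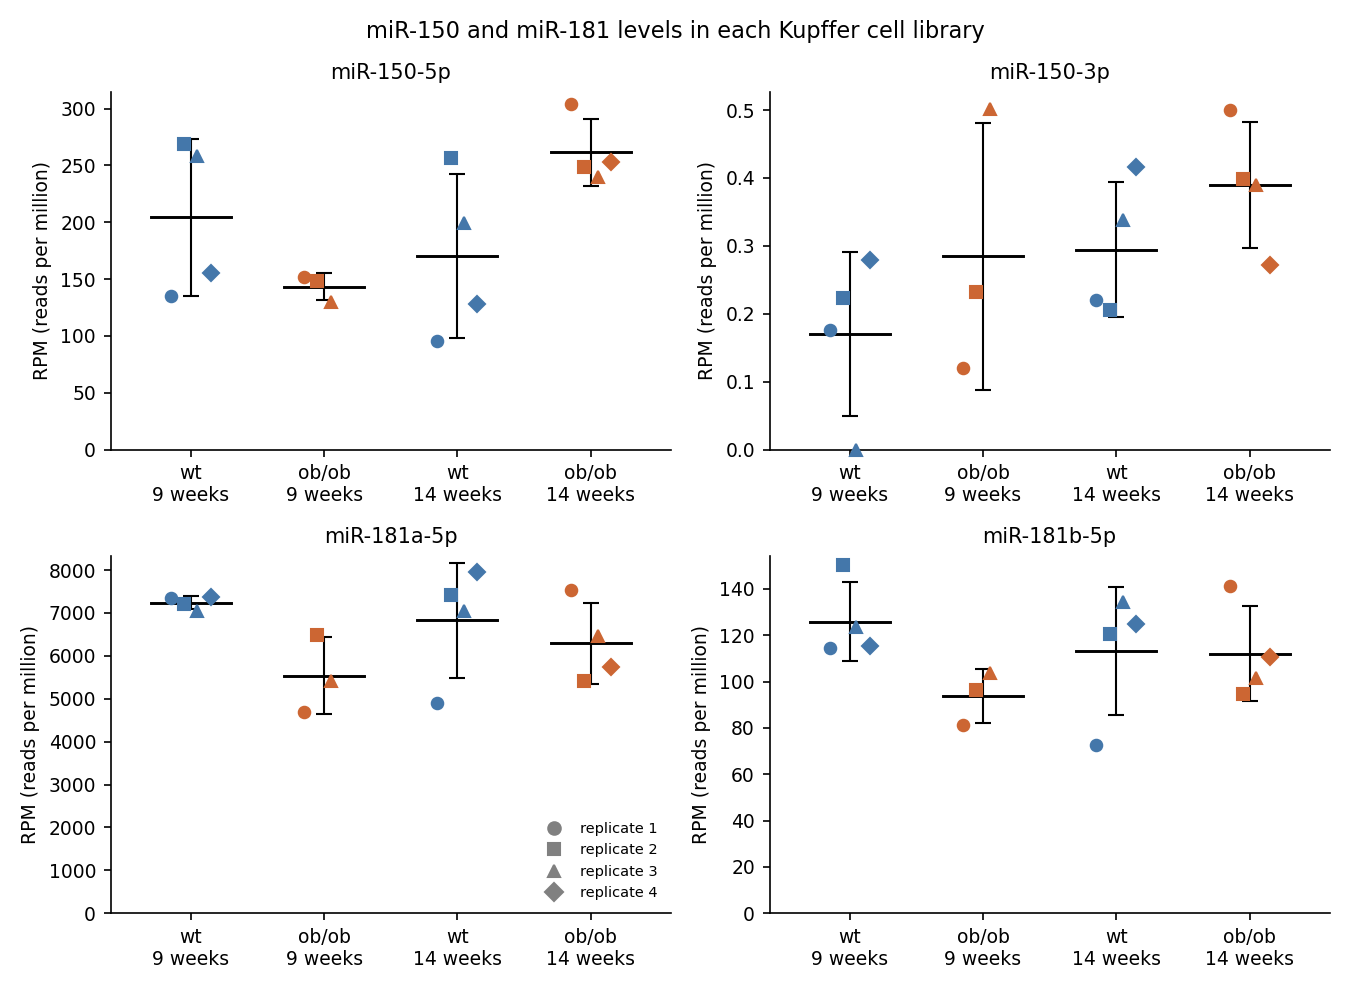
Level of each member in every library, in RPM on a linear axis from 0 with its own scale per panel. Blue points are wt and orange points ob/ob (circle, square, triangle and diamond for replicates 1 to 4), and black bars are the mean ± SD of each group. The 4 ob/ob values of miR-150-5p at 14 weeks lie between 239 and 304 RPM, while the wt values spread from 95.8 to 257 RPM, and ob/ob at 9 weeks lies below wt for miR-181a-5p and miR-181b-5p.

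At 9 weeks miR-150-5p, the more abundant arm of Mir150, was at 135, 269, 258 and 155 RPM in wt replicates 1 to 4. In ob/ob replicates 1 to 3 it was at 152, 148 and 129.7 RPM. The means were 204 ± 69.0 (SD, n = 4) and 143 ± 11.9 RPM (SD, n = 3). The wt libraries split into a high and a low pair, and ob/ob lay within the range of the low pair or just below it. The log2 difference, ob/ob minus wt, was -0.45 ± 0.28 (SE, 95% interval -1.09 to 0.20; limma adjusted p = 0.239). After rescaling it was 0.06 (limma adjusted p = 0.915). MiR-150-5p did not pass the test on either scale.

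MiR-181a-5p stood at 7342, 7204, 7039.6 and 7378 RPM in the wt libraries of 9 weeks and at 4702, 6485 and 5408 RPM in ob/ob. All ob/ob values were below all wt values, and the wt values differed little among themselves (7241 ± 154 against 5531.5 ± 898 RPM). The log2 difference was -0.40 ± 0.16 (95% interval -0.77 to -0.04) and limma adjusted p = 0.0852. It passed in only 1 of 15 alternatives, without ob/ob replicate 2, the highest of its group (-0.52 ± 0.13, limma adjusted p = 0.0199). Leaving out that library widens the gap by construction. Over all fits with 1 library left out, limma adjusted p for miR-181a-5p was 0.0199 to 0.208. Those fits called 53 to 72 miRNAs, against 67 of 179 (37.4%) with all libraries. With rescaling the difference was 0.11 (limma adjusted p = 0.623) and the groups overlapped.

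MiR-181b-5p, its neighbour on both chromosomes, was at 114, 151, 123 and 115 RPM in wt and at 81.1, 96.3 and 104 RPM in ob/ob at 9 weeks. The means were 126 ± 17.0 and 93.7 ± 11.5 RPM. Again no ob/ob library reached the lowest wt library. The log2 difference was -0.42 ± 0.19 (limma adjusted p = 0.104) as deposited and 0.08 (limma adjusted p = 0.774) after rescaling.

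Thus 0 of the 3 members tested at 9 weeks passed, where limma called 67 of 179 miRNAs (37.4%), 58 lower and 9 higher in ob/ob. On the rescaled values it called 38 of 177 (21.5%), 18 lower and 20 higher. Groups without overlap and lower in ob/ob were found for 2 of the 3 members, miR-181a-5p and miR-181b-5p, and for 41.3% of all tested miRNAs. The 3 members differed by nearly the same amount as the whole table: the median log2 difference was -0.42 over the members and -0.51 over all 179 miRNAs. A share of 53.6% of the tested miRNAs had a lower log2 difference than miR-150-5p, 55.9% a lower one than miR-181a-5p and 54.7% a lower one than miR-181b-5p. The members thus lay near the middle of the table.

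At 14 weeks miR-150-5p was at 95.8, 257, 199 and 128 RPM in wt replicates 1 to 4 and at 304, 249, 239 and 253 RPM in ob/ob. The means were 170.1 ± 72.1 and 261 ± 29.1 RPM (SD, n = 4 each). The ob/ob libraries lay close together and above 3 of the 4 wt libraries, with wt replicate 2 among them. The log2 difference was 0.71 ± 0.34 (95% interval -0.04 to 1.47) and limma adjusted p = 0.173. It was 0.50 ± 0.23 after rescaling (limma adjusted p = 0.149). Without wt replicate 1, the library with the low sum, it was 0.47 ± 0.26 (limma adjusted p = 0.219). It was 0.81 in lane 1 alone and 0.62 in lane 2 alone, each with 2 libraries per genotype. Lane 1 held wt replicate 1 (95.8 RPM), and its other wt library (257 RPM) lay between the ob/ob libraries (304 and 249 RPM).

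MiR-181a-5p was at 4907, 7413, 7044 and 7954 RPM in wt and at 7537, 5408, 6459 and 5752 RPM in ob/ob at 14 weeks. The lowest value was that of wt replicate 1, and the other 3 wt libraries overlapped with ob/ob. The log2 difference was -0.11 ± 0.24 (limma adjusted p = 0.815), and -0.32 ± 0.16 after rescaling (limma adjusted p = 0.181). Its sign turned to 0.08 in lane 1 alone and stayed at -0.30 in lane 2 alone.

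MiR-181b-5p was at 72.5, 121, 135 and 125 RPM in wt and at 141, 94.8, 102 and 111 RPM in ob/ob at this age. The groups overlapped, with means of 113 ± 27.7 and 112 ± 20.5 RPM. The log2 difference was 0.01 ± 0.28 (limma adjusted p = 0.987), and -0.21 ± 0.19 after rescaling (limma adjusted p = 0.464).

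None of the 3 members tested at 14 weeks passed, on either scale. Limma called 26 of 171 miRNAs as deposited (15.2%; 20 higher, 6 lower) and 47 of 168 after rescaling (28.0%; 26 higher, 21 lower). The median log2 difference was 0.01 over the 3 members and 0.20 over all 171. MiR-150-5p lay in the upper part of the table, with 76.0% of the tested miRNAs at a lower log2 difference. For miR-181a-5p and miR-181b-5p this share was 29.8% and 39.8%.

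**Figure D2:**
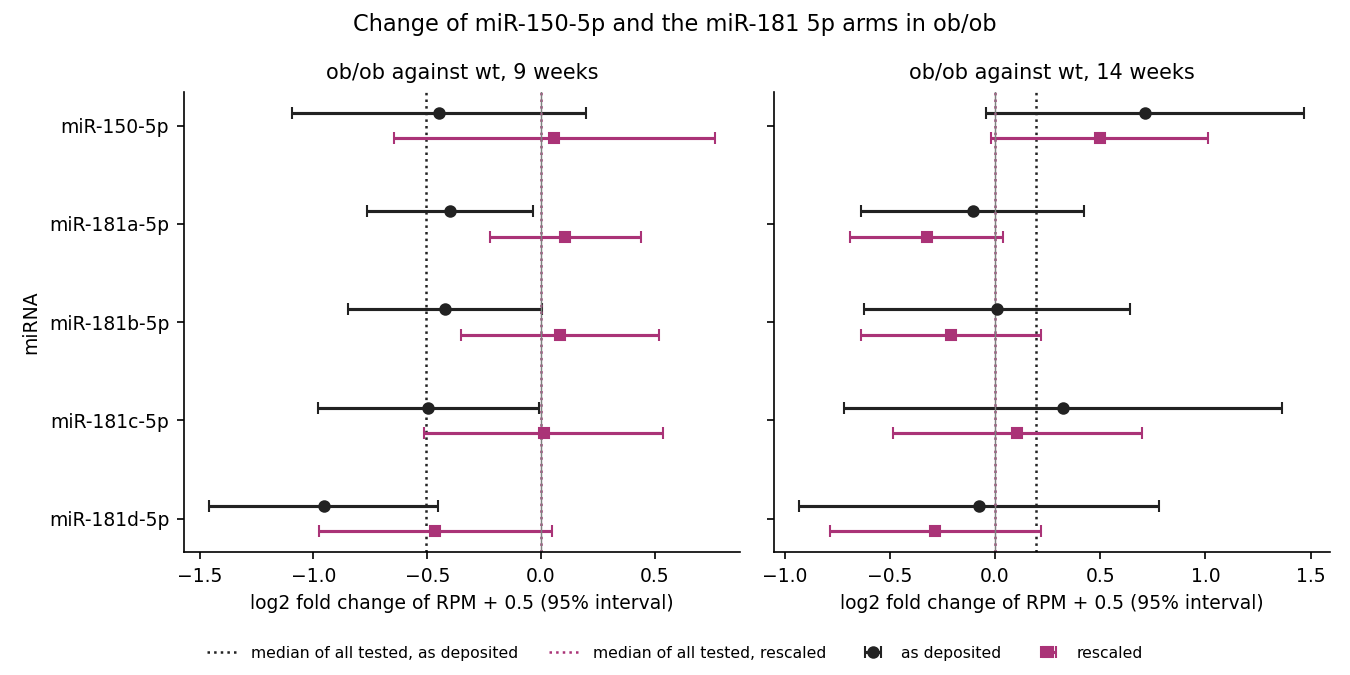
Log2 difference, ob/ob minus wt, of the tested miR-150 and miR-181 miRNAs at 9 and 14 weeks, as deposited and after rescaling, with 95% intervals. Each panel has its own axis, and dotted lines mark the median of all tested miRNAs. At 9 weeks miR-150-5p, miR-181a-5p and miR-181b-5p lie near that median, -0.51, as deposited and near 0 after rescaling, and the intervals of miR-150-5p include 0 at both ages.

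Whether the ob/ob difference itself differed between the ages was tested as the interaction of genotype and age over all 15 libraries. For miR-150-5p the difference was 1.16 ± 0.45 larger at 14 weeks on the log2 scale (limma adjusted p = 0.132). For miR-181a-5p it was 0.29 ± 0.28 (limma adjusted p = 0.486) and for miR-181b-5p 0.43 ± 0.33 (limma adjusted p = 0.389). Limma called 0 of 187 miRNAs (0.00%), with 48 at an unadjusted p under 0.05, and the median over all was 0.68. After rescaling the values were 0.44 ± 0.39 for miR-150-5p, -0.43 ± 0.20 for miR-181a-5p and -0.29 ± 0.25 for miR-181b-5p, with limma adjusted p of 0.668, 0.530 and 0.668, and 0 of 188 miRNAs were called (17 at an unadjusted p under 0.05). The direction of both miR-181 members thus turned with the scaling.

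MiR-150-3p, the arm that is usually degraded, was measured at 0.176, 0.223, 0 and 0.280 RPM in wt and at 0.120, 0.232 and 0.501 RPM in ob/ob at 9 weeks. At 14 weeks it was at 0.220, 0.205, 0.338 and 0.416 RPM in wt and at 0.499, 0.398, 0.390 and 0.272 RPM in ob/ob. These values stand for 0 to 39 reads per library, and the 0 in wt replicate 3 of 9 weeks allows up to 0.213 RPM. The arm never reached the filter of 1 RPM and was not tested. It made up 0 to 0.385% of the reads of both arms, so miR-150-5p was 259 to 1265 times as high in the 14 libraries with a 3p read. The log2 ratio of the arms differed between ob/ob and wt by -0.67 at 9 weeks (two-sided exact permutation p = 0.343) and by 0.55 at 14 weeks (exact permutation p = 0.229), and the groups overlapped at both ages. The 0.5 RPM added to each arm for this ratio was about as large as the 3p level or larger, so its value mostly follows miR-150-5p and is no measure of the balance of the arms. Without it, the ratio of miR-150-5p to miR-150-3p was 435, 1252, 591 and 309 in wt and 609, 626, 614 and 932 in ob/ob at 14 weeks, again with overlap.

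Ratios of 2 miRNAs within a library do not depend on library scaling where both lie far above the added 0.5 RPM, as miR-150-5p, miR-181a-5p, miR-181b-5p, miR-511-3p and miR-142a-5p did. The log2 ratio of miR-150-5p to miR-181a-5p was -5.76, -4.74, -4.77 and -5.57 in wt and -4.95, -5.45 and -5.38 in ob/ob at 9 weeks of age. The ob/ob values lay inside the wt range, and the means differed by -0.05 (two-sided exact permutation p = 0.971). At 14 weeks the ratio was -5.67, -4.85, -5.14 and -5.95 in wt and -4.63, -4.44, -4.75 and -4.50 in ob/ob. Every ob/ob library was above every wt library, by 0.82 between the means (-5.40 ± 0.50 against -4.58 ± 0.14). The two-sided exact permutation p was 0.0286, the smallest that 4 against 4 allows, and 0.143 after adjustment over the 10 ratio tests. With these group sizes no ratio could reach an adjusted p under 0.05, so not passing says nothing about the difference. Of the ratios of all other tested miRNAs to miR-181a-5p, 26.5% were likewise higher in ob/ob without overlap. The difference was 0.73 within lane 1 and 0.92 within lane 2, and 0.73 without wt replicate 1. Whether it differed from that at 9 weeks was not tested.

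Against the macrophage miR-511-3p, the log2 ratio of miR-150-5p was -0.32, 0.67, 0.74 and 0.10 in wt and 0.94, 0.55 and 1.27 in ob/ob at 9 weeks. Here the groups overlapped (difference 0.62, two-sided exact permutation p = 0.171, adjusted p = 0.429). At 14 weeks it was 0.31, 0.49, 0.15 and -0.33 in wt and 1.08, 0.94, 0.72 and 1.32 in ob/ob, without overlap. The means differed by 0.86 (0.15 ± 0.35 against 1.02 ± 0.25), with exact permutation p = 0.0286, again the smallest possible, and adjusted p = 0.143. The same position was found for 25.9% of the tested miRNAs. MiR-511-3p itself was at 77.3 to 183 RPM in wt and 101 to 145 RPM in ob/ob at 14 weeks (limma adjusted p = 0.815). After rescaling its log2 difference at 14 weeks was -0.36 (limma adjusted p = 0.120), with all ob/ob libraries below all wt libraries, as for 13.1% of the tested miRNAs. At 9 weeks it fell from 159 ± 11.8 in wt to 77.9 ± 23.9 RPM in ob/ob (log2 difference -1.07 ± 0.24, limma adjusted p = 0.00984), without overlap. Of all tested miRNAs, 32.4% were likewise called lower and 41.3% were lower without overlap, and the median log2 difference was -0.51. On the rescaled values its log2 difference was -0.56 (95% interval -1.05 to -0.08, limma adjusted p = 0.0860), and all ob/ob libraries still lay below all wt libraries. At 9 weeks 21.5% of the tested miRNAs had that position after rescaling.

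With the pan-leukocyte miR-142a-5p as the reference, a choice made after the values of miR-142a-3p were seen, the difference was smaller. The log2 ratio of miR-150-5p to it was -4.19, -3.30, -3.71 and -4.42 in wt and -2.88, -3.84, -3.83 and -3.95 in ob/ob at 14 weeks. The groups overlapped, with ob/ob replicate 1 highest (difference 0.28, two-sided exact permutation p = 0.486). At 9 weeks the difference was 0.06 (exact permutation p = 0.914). MiR-142a-3p itself was listed at 0 to 0.159 RPM in 12 libraries and at 17.1 to 18.6 RPM in ob/ob replicates 2, 3 and 4 of 14 weeks, so the ratio to it follows those 3 libraries and elsewhere mostly the level of miR-150-5p (9 weeks -0.41, exact permutation p = 0.457; 14 weeks -3.23, exact permutation p = 0.114).

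**Figure D3:**
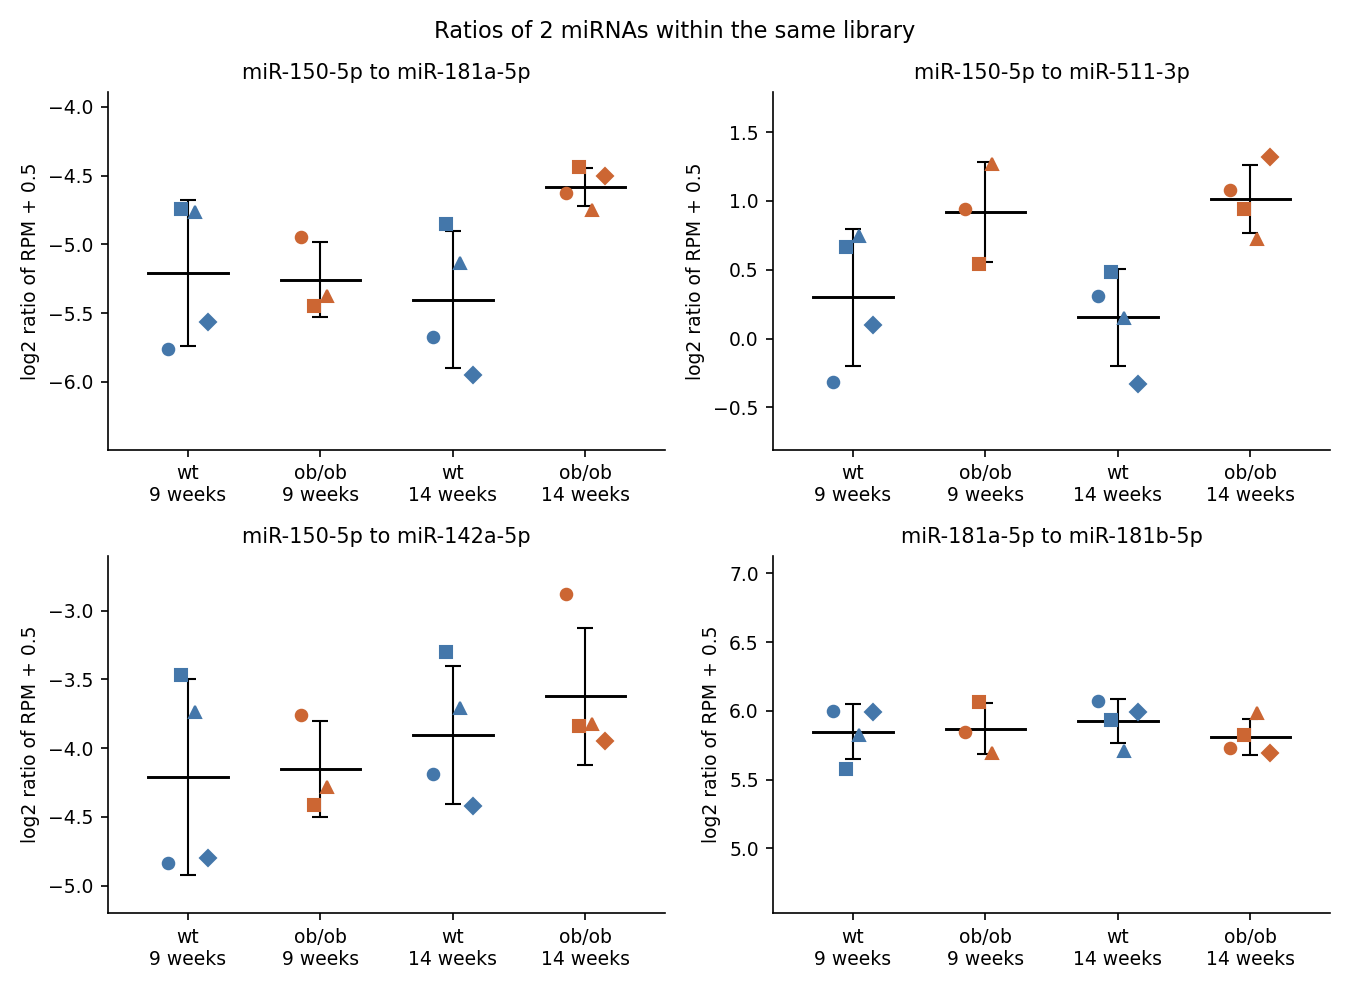
Log2 ratio of member pairs and of miR-150-5p to reference miRNAs in every library, by age and genotype. Blue points are wt and orange points ob/ob (circle, square, triangle and diamond for replicates 1 to 4), black bars the mean ± SD. At 14 weeks all ob/ob points lie above all wt points for miR-150-5p to miR-181a-5p, whereas the points of miR-181a-5p to miR-181b-5p mix at both ages.

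The ratio of miR-181a-5p to miR-181b-5p was compared in the same way. Its log2 value was 5.58 to 6.00 in wt and 5.70 to 6.07 in ob/ob at 9 weeks, then 5.71 to 6.07 and 5.69 to 5.98 at 14 weeks. The differences between genotypes were 0.02 (two-sided exact permutation p = 0.914) and -0.12 (exact permutation p = 0.314), and the groups overlapped. Within lane 1 at 14 weeks the difference was -0.22, without overlap of the 2 libraries per genotype. Within lane 2 it was -0.008, with overlap. Among the 4 miR-181 5p arms, miR-181a-5p held 91.8% to 96.7% of the reads, miR-181c-5p 1.69% to 6.25%, miR-181b-5p 1.43% to 1.96% and miR-181d-5p 0.138% to 0.335%. The share of miR-181c-5p was thus the one that moved most in percentage points after that of miR-181a-5p, from its lowest value in wt replicate 1 to its highest in ob/ob replicate 2, both of 14 weeks.

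**Figure D4:**
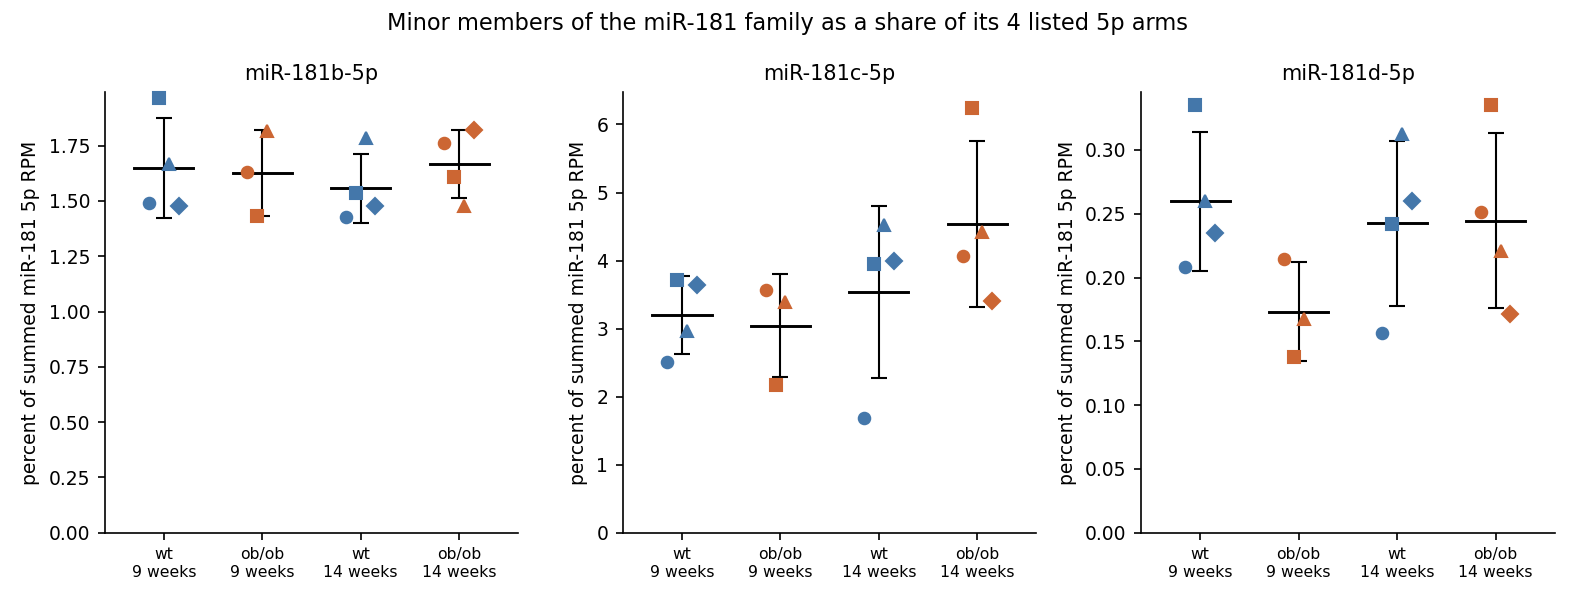
Share of miR-181b-5p, miR-181c-5p and miR-181d-5p in the summed RPM of the 4 miR-181 5p arms, in percent on linear axes from 0, per library and group. MiR-181a-5p makes up the rest. Points are libraries (blue wt, orange ob/ob; circle, square, triangle and diamond for replicates 1 to 4) and black bars the mean ± SD. The share of miR-181b-5p stays between 1.43% and 1.96%, while that of miR-181c-5p spreads from 1.69% to 6.25% at 14 weeks. Each panel has its own axis.

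Of 8 other miR-181 arms looked for, 3 were listed and 2 could be tested. MiR-181d-5p, made with miR-181c-5p from chromosome 8, was at 15.98 to 25.7 RPM in wt and 9.27 to 10.7 RPM in ob/ob at 9 weeks. It fell by 0.96 ± 0.22 on the log2 scale (limma adjusted p = 0.0111), as did 32.4% of the tested miRNAs, but its difference was -0.47 after rescaling, which did not pass (limma adjusted p = 0.164). MiR-181c-5p was at 193 to 285 RPM in wt and 146 to 194 RPM in ob/ob at 9 weeks (log2 difference -0.49 ± 0.21, limma adjusted p = 0.101). After rescaling its difference was 0.01 (limma adjusted p = 0.982). At 14 weeks neither passed, at 0.32 ± 0.46 for miR-181c-5p and -0.08 ± 0.38 for miR-181d-5p (limma adjusted p = 0.693 and 0.907). Rescaled, these differences were 0.11 and -0.29 (limma adjusted p = 0.792 and 0.382).

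Likeness of pattern was described by Pearson's r of log2 rescaled RPM over the 15 libraries, among 110 miRNAs detected in every library at 10 RPM or more on average. The libraries share preparation and span both ages and genotypes, so r also reflects differences between those groups. For miR-181a-5p the nearest were miR-191-5p (r = 0.802), miR-320-3p (0.784) and miR-181b-5p (0.727). For miR-181b-5p they were miR-181a-5p (0.727), miR-30e-3p (0.709) and miR-191-5p (0.532). The highest r of miR-150-5p was lower than the highest of either: its closest were miR-155-5p (0.616), miR-335-5p (0.445) and miR-188-5p (0.418). Its r was -0.22 with miR-181a-5p and 0.20 with miR-181b-5p, against 0.326 and 0.583 on the values as deposited. On that scale miR-188-5p (0.761), miR-335-5p (0.751) and miR-195a-5p (0.696) were nearest to miR-150-5p. The highest r as deposited was 0.873 for miR-181a-5p (with miR-320-3p) and 0.852 for miR-181b-5p (with miR-30e-3p).

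Of 18 other miRNAs that are studied in lymphocytes, 9 were listed. The most abundant were miR-16-5p, at 7057 to 17211 RPM, and miR-92a-3p of the miR-17 to miR-92a cluster, at 1496 to 3660 RPM. At 9 weeks 3 of 9 tested passed in ob/ob, near the share of 37.4% over all tested miRNAs, miR-34a-5p higher and miR-92a-3p and miR-29a-3p lower. The median log2 difference was 0.48 over the list and -0.51 over all tested miRNAs. On the rescaled values 3 passed, all higher, miR-146a-5p, miR-19a-3p and miR-34a-5p, where 21.5% of all tested miRNAs passed (11.3% higher). At 14 weeks 3 of 8 passed, all higher, where 15.2% of all tested miRNAs passed. MiR-155-5p, which is induced on activation of lymphocytes and macrophages alike, rose from 7.54 ± 3.11 to 18.9 ± 4.40 RPM (log2 difference 1.31 ± 0.32, limma adjusted p = 0.0201). MiR-19a-3p rose by 2.45 ± 0.37 (limma adjusted p = 0.00256) while miR-34a-5p, which p53 induces, rose by 1.81 ± 0.28 (limma adjusted p = 0.00256). These 3 also passed at 14 weeks after rescaling, together with miR-29b-3p, where 28.0% of all tested miRNAs passed (15.5% higher).

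Some markers of other cell types differed between the genotypes in the same libraries. All 3 hepatocyte miRNAs were measured, and their sum was 1099.7 to 2222 RPM in wt and 3966 to 5524 RPM in ob/ob at 9 weeks, and 1099 to 1688 and 3168 to 6898 RPM at 14 weeks. Most of that sum was miR-192-5p, at 978 to 6628 RPM. MiR-122-5p was at 18.4 to 73.1 RPM in wt and 113 to 228 RPM in ob/ob at 9 weeks. At 14 weeks miR-122-5p overlapped, at 15.2 to 101 RPM in wt and 36.9 to 79.4 RPM in ob/ob (limma adjusted p = 0.551). As deposited 2 of the 3 were called higher at each age, miR-192-5p with miR-122-5p at 9 weeks and with miR-194-5p at 14 weeks. After rescaling all 3 were called higher at 9 weeks and 1, miR-192-5p, at 14 weeks. The share called over all miRNAs was 37.4% and 15.2% as deposited and 21.5% and 28.0% after rescaling. Of 3 erythroid miRNAs only miR-144-5p was measured, at 0.331 to 1.49 RPM in wt and 11.6 to 32.4 RPM in ob/ob, and it rose at both ages (limma adjusted p = 0.000266 and 0.000108). Both endothelial miRNAs were measured, with sums of 42296 to 59286 RPM in wt and 18455 to 45923 RPM in ob/ob at 9 weeks, where miR-126a-3p passed as deposited (-0.94, limma adjusted p = 0.0230) but not after rescaling (-0.43, limma adjusted p = 0.273), and 10833 to 63153 and 33630.5 to 55779 RPM at 14 weeks, where ob/ob replicate 2 had miR-126a-3p at 0. Of 5 stellate and mesenchymal miRNAs 4 were tested, with miR-199a-3p and miR-214-3p called lower at 9 weeks and none at 14 weeks as deposited. After rescaling miR-214-3p was no longer called at 9 weeks (-0.43, limma adjusted p = 0.310), and miR-143-3p was called higher at 14 weeks (1.05, limma adjusted p = 0.0488). The list summed to 1379.7 to 1799.6 RPM in wt and 934 to 1567 RPM in ob/ob at 9 weeks and to 495 to 1860.4 and 1347 to 2668 RPM at 14 weeks. MiR-199a-5p of that list was at 0 to 0.205 RPM. Of 5 biliary and epithelial miRNAs 4 were measured, at sums of 51.5 to 87.3 RPM at 9 weeks and 22.7 to 103 RPM at 14 weeks. MiR-141-3p was called higher at 14 weeks on both scales and at 9 weeks only after rescaling (0.91, limma adjusted p = 0.0435). MiR-200b-3p, the next most abundant of that list, was at 12.8 to 20.8 RPM in wt and 8.32 to 21.8 RPM in ob/ob at 9 weeks. At 14 weeks it was at 6.17 to 23.1 and 14.4 to 26.1 RPM, and it was not called at either age on either scale. The part of these markers, of the sum of listed miRNAs and of depth in the values of the 4 members was not tested. Nor was the share of member reads that came from lymphocytes in the preparation, and miR-342-3p, another miRNA studied in lymphocytes, was not analysed here.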

How the data were processed

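Small RNA of Kupffer cells was prepared with the miRNeasy and TruSeq Small RNA kits and sequenced on an Illumina HiSeq, per the labels' protocols. The submitters' processing notes name bcl2fastq, cutadapt, GRCm38.p5 and mm10. No aligner or miRNA annotation is named in them. The deposited values, 1 table per age, were taken as RPM made by the authors. This unit was inferred from the values, and the reads that form its denominator are not stated. Low values were whole multiples of 1 step, within 0.1 reads, which gives the implied depth. Intervals and floors from it cover counting error only. Higher values did not allow the check, so no count model was used. Lane 2 held all libraries of 9 weeks. At 14 weeks each genotype had replicates 1 and 2 in lane 1 and 3 and 4 in lane 2, per the labels.

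The members and the lists of other miRNAs were chosen with earlier results of these data known. Log2(RPM + 0.5) of every miRNA with at least 1 RPM in at least 3 libraries at 9 weeks, 4 at 14 weeks and 3 in the interaction was fitted with limma 3.58.1 in R 4.3.3 (trend, robust empirical Bayes), within each age and as the interaction over all 15 libraries. P-values were adjusted by Benjamini-Hochberg over all miRNAs tested, with a threshold of 0.05. Such fold changes understate those of rare miRNAs. Levels at the 2 ages come from separate tables and were set side by side with no test. Rescaling divided each library by its median ratio to the geometric mean over the libraries compared, over miRNAs above 0 in all of them that average 5 RPM or more. Within-library log2 ratios, with 0.5 RPM added, were tested by two-sided exact permutation (Python 3.11.15, scipy 1.17.1), adjusted over 10 tests. The smallest p was 0.0286 for 4 against 4 and 0.0571 for 3 against 4. No ratio could therefore pass 0.05 after adjustment over the 10 tests. The labels do not say whether replicates are separate animals. The p-values thus measure only the spread between these libraries, which may be technical. Named beside the members were the 2 most abundant miRNAs of each list, any that passed the test, and for each member the 3 miRNAs of most similar pattern. Alternatives were other scalings, a correction for GC content, pseudocounts, no filter, a non-robust fit, a replicate block, the lanes, and leaving out each library. The script was tested on simulated data.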

Additional observations from a re-analysis of the deposited data

Results flagged for a closer look

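Of 27 groups of member values and ratios tested for a library far from the others, 1 stood out, where chance gives about 1 in 20. In ob/ob at 14 weeks the log2 ratio of miR-150-5p to miR-142a-3p was 8.85 in replicate 1 and 3.82, 3.70 and 3.73 in replicates 2, 3 and 4. The gap lies in miR-142a-3p, which was at 17.1 to 18.6 RPM in those 3 libraries and between 0 and 0.159 RPM elsewhere (12 libraries), while miR-150-5p was at 239 to 304 RPM in all 4.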

How the results depend on the processing

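Counts of calls moved with scaling, lane, filter and single libraries. At 9 weeks limma called 67 miRNAs as deposited, 38 after rescaling, 39 with a GC correction added (fitted for miRNAs with a reference sequence, without miR-150-5p), 35 after scaling to the sum of listed miRNAs (chosen after seeing the data) and 53 to 72 when 1 library was left out. At 14 weeks it called 26, against 47 after rescaling, 48 after scaling to the sum, 1 in lane 1 alone, 51 in lane 2 alone and 12 to 48 with 1 library left out (48 without wt replicate 1, 15 without wt replicate 3, 14 without ob/ob replicate 2 and 12 without ob/ob replicate 3). For the interaction it called 0, against 4 with no filter and 0 to 3 with 1 library left out (3, 1 and 2 without wt replicates 2 and 3 and ob/ob replicate 1 of 14 weeks).

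The sign of the 9-week difference of miR-150-5p, miR-181a-5p and miR-181b-5p turned to 0.059, 0.11 and 0.085 after rescaling and to 0.017, 0.066 and 0.043 after scaling to the sum, and for miR-181a-5p and miR-181b-5p to 0.13 and 0.067 with the GC correction. At 14 weeks miR-181b-5p (0.01) turned to -0.21, -0.19 and -0.23 under these settings and to -0.29 in lane 2 alone (-0.19 to 0.10 with 1 library left out), and miR-181a-5p to 0.082 in lane 1 alone. The interaction turned to -0.43, -0.37 and -0.41 for miR-181a-5p and to -0.29, -0.23 and -0.30 for miR-181b-5p. With 1 library left out, the 9-week difference of miR-181a-5p was -0.52 to -0.29 (limma adjusted p 0.0199 to 0.208), and that of miR-150-5p was 0.47 to 0.95 at 14 weeks (limma adjusted p 0.107 to 0.343). Ratio differences at 9 weeks ran from -0.23 to 0.11 for miR-150-5p to miR-181a-5p and from -0.077 to 0.11 for miR-181a-5p to miR-181b-5p. With miR-142a-5p in place of miR-142a-3p the ratio difference was 0.057 at 9 and 0.28 at 14 weeks. The cause of these shifts was not tested.

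Same-numbered libraries did not all deviate together (correlations 0.28, 0.14 and -0.14 at 9 weeks; -0.24, 0.10, 0.20 and 0.09 at 14 weeks), so the numbers were not taken as pairs. A replicate block gave 32 calls at 9 weeks, 22 at 14 weeks and 2 in the interaction, and no member passed. Depth limits miR-150-3p, at 0 to 39 reads.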
